A study of Anopheles coluzzii and Anopheles merus with 32 samples.

Results

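Of 11025 gene identifiers measured in whole mosquito larvae, 53 were far higher in Anopheles merus than in Anopheles coluzzii when both species were kept in freshwater. A gene was a member when, at both larval ages, the mean of the 4 An. merus freshwater libraries was at least 5 CPM (read counts relative to library size) and at least 4 times the mean of the 4 An. coluzzii freshwater libraries. The freshwater species difference therefore chose the genes and is described below without a test. The saltwater libraries of both species took no part in the choice, and the tests of the species difference rest on them.

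The larvae of both species were reared in freshwater (FW) to 18 h or 66 h after hatching and then spent 6 h in FW or in saltwater (SW). The 8 groups were An. coluzzii at 18 h in FW, at 18 h in SW, at 66 h in FW and at 66 h in SW, and An. merus at the same ages and in the same waters, each with 4 libraries. A library was made from the RNA of a pool of 35 to 50 whole larvae, and the labels name no strain, no salinity and no separate cultures for the pools. The p-values therefore speak of the spread among the libraries at hand, some of which may be technical. In pooled whole bodies, fewer cells of a type and less RNA per cell cannot be told apart.

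Both mosquitoes belong to the Anopheles gambiae complex of African malaria vectors. An. merus larvae can live in brackish coastal pools as well as in freshwater, while An. coluzzii larvae live in freshwater. A mosquito larva in dilute water takes up salt through its anal papillae and gut and sheds excess water through the Malpighian tubules and rectum, and in salty water ions have to be excreted. Larvae also pass through moults and rapid growth over the ages compared here. The identifiers begin with AGAP and could not be matched to gene names, so no role is given to any of the 53 genes, and markers of a tissue or cell type could not be checked.

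Read totals per library ran from 3769859 to 16633623. The 53 genes together took 0.0329% to 0.0962% of the reads in the An. coluzzii libraries at 18 h in FW and 0.363% to 0.474% in those of An. merus, and 0.161% to 0.202% against 0.616% to 1.46% at 66 h in FW. The An. coluzzii libraries at 18 h in FW did not form one cluster. Libraries 1 and 2 differed from libraries 3 and 4 by a root mean square of 0.537 on the log2 scale over genes, against 0.348 and 0.324 within those pairs. For 28 of the 53 genes both of libraries 1 and 2 lay below both of libraries 3 and 4, which held for 32.7% of all genes tested, and for 22 the gap was at least 2-fold, which held for 5.36% of all. In the An. coluzzii libraries at 18 h in SW the order was the other way for many of them. Over all genes the same pairs were less distinct in SW, at 0.575 between them against 0.548 and 0.414 within them. There, libraries 1 and 2 lay above libraries 3 and 4 for 26 of the 53 genes (22.2% of all genes), and by at least 2-fold for 18 (5.31% of all). Both splits were at least 2-fold for 11 genes (3.14% of all genes). The An. coluzzii libraries at 18 h in FW took part in the choice, where low values in libraries 1 and 2 favour membership. An excess over all genes in the FW counts, and in the count with both splits, is therefore favoured by the choice. This pattern was noticed in the data, and its part in the results was not tested. The number of members and the calls at 18 h that involve An. coluzzii in FW are given with and without libraries 1 and 2 where these change them. The other levels, ratios and counts at 18 h in FW include all 4 libraries.

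The freshwater difference was made of genes at very different levels. In An. merus the group means of the 53 genes ran from 6.398 to 663 CPM at 18 h in FW, with a median of 23.6 CPM, and from 5.16 to 4142 CPM at 66 h, with a median of 43.2 CPM. In An. coluzzii the means ran from 0.0516 to 145 CPM at 18 h, with a median of 1.35 CPM, and from 0 to 837 CPM at 66 h, with a median of 3.67 CPM. Mean values below 1 CPM at both ages in An. coluzzii FW were found for 12 genes, and 11 of these stayed below 1 CPM in its SW groups too. Another 8 genes were at 10 CPM or more in An. coluzzii FW at both ages, and 33 lay between. All 4 An. merus FW libraries lay above all 4 An. coluzzii FW libraries for each of the 53 genes at each age, which follows closely from how they were chosen (over all genes tested the share was 21.4% at 18 h and 23.2% at 66 h).

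**Figure D1:**
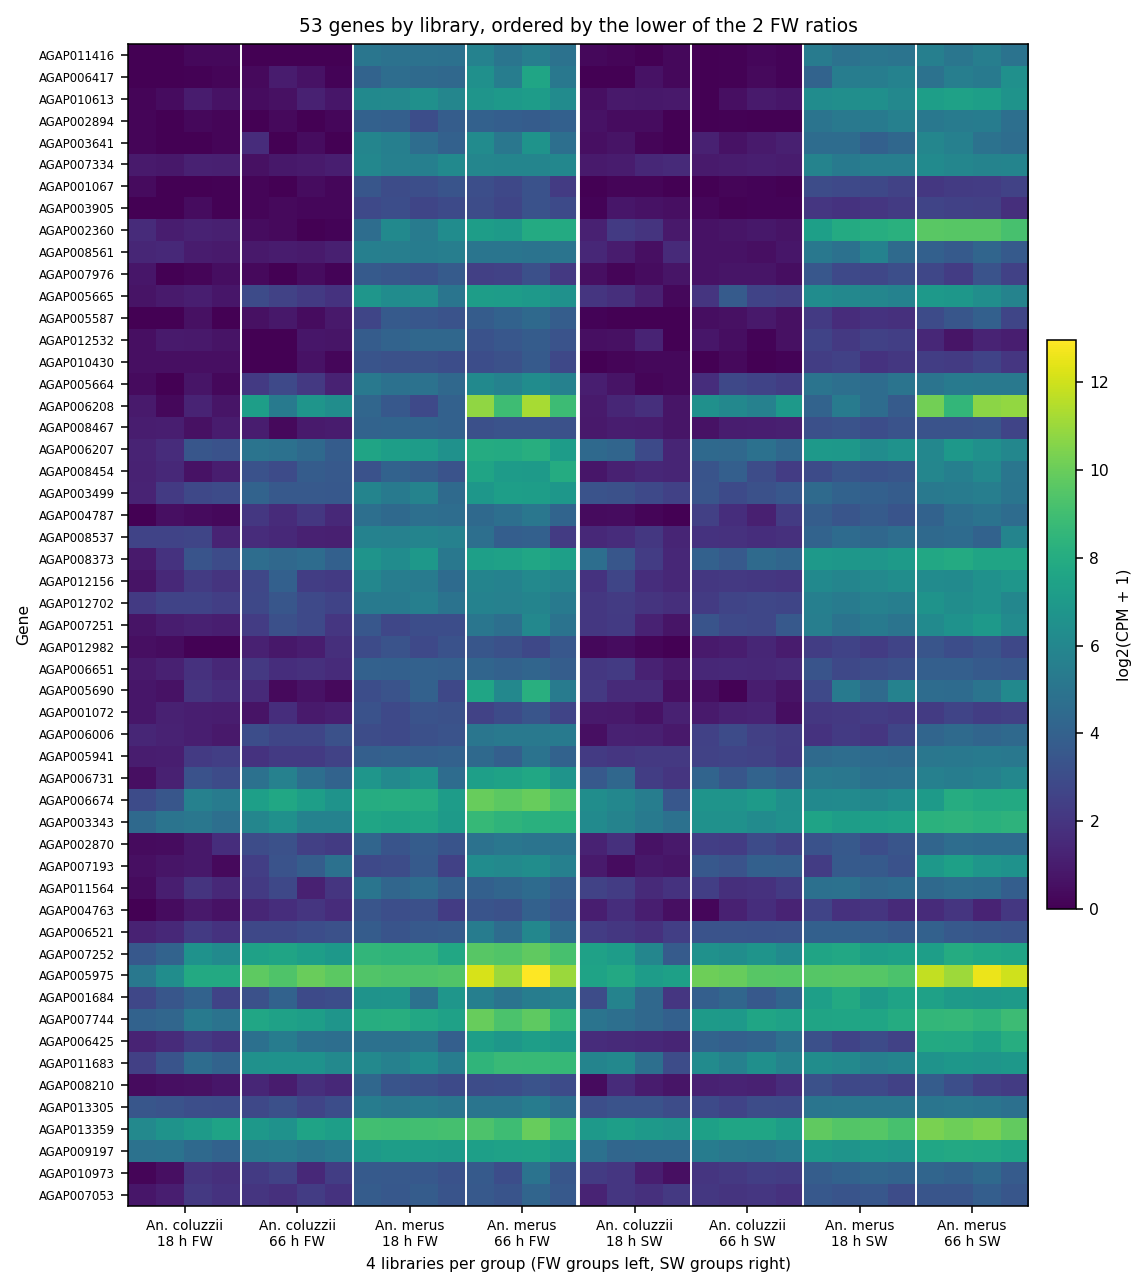
Level of each of the 53 genes in each of the 32 libraries. Rows are genes ordered by the lower of their 2 FW ratios (An. merus mean over An. coluzzii mean), columns are libraries grouped by species, age and water, and colour gives log2(CPM + 1). The 4 FW groups on the left chose the genes. On the right, the An. merus SW groups remain brighter than the An. coluzzii SW groups in nearly every row, and the 18 h An. coluzzii groups change colour within the group in many lower rows.

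AGAP011416, the gene with the highest value for the lower of its 2 FW ratios, was close to silent in An. coluzzii and steadily expressed in An. merus. In An. merus FW it stood at 32.6, 28.5, 28.1 and 27.01 CPM (18 h) and 52.4, 31.96, 45.7 and 28.6 CPM (66 h). The An. coluzzii FW libraries at 18 h had 0, 0, 0.216 and 0.202 CPM, and no read was counted in any of the 4 libraries at 66 h. Every An. merus value was above 27 CPM and every An. coluzzii value below 0.25 CPM. Against a floor of 3 reads over the An. coluzzii group, the pooled ratio at 66 h was 379. The lower limit of its 95% counting interval, from 0 reads against 1813, was 308. The ratio of means at 18 h was 278. Its SW values were 40.2, 28.8, 33.04 and 30.5 CPM (18 h) and 46.4, 33.3, 45.1 and 29.8 CPM (66 h) in An. merus. The corresponding An. coluzzii values reached at most 0.213 and 0.17 CPM, so the gap was of the same kind in both waters.

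AGAP010613 was the most abundant in An. merus of the 12 genes below 1 CPM in An. coluzzii. It stood at 69.3, 67.2, 88.3 and 61.04 CPM in An. merus at 18 h in FW and at 0.147, 0.34, 1.01 and 0.538 CPM in An. coluzzii. At 66 h it stood at 108, 125, 140.5 and 74.1 CPM and 0.354, 0.506, 1.26 and 0.732 CPM in the same order. The groups were far apart at both ages, and the lower of the 2 FW ratios was 141. Among the others with lower FW ratios near or above 100, AGAP006417 and AGAP003641 had very few An. coluzzii reads at 18 h. Their lower FW ratios, 192 and 94.8, were those at 66 h, from 10 and 20 An. coluzzii reads. AGAP010613 also had 20 there. For AGAP003641 the An. coluzzii libraries at 66 h in FW stood at 2.12, 0, 0.361 and 0 CPM. AGAP006417 had 3 reads over the 4 An. coluzzii libraries at 18 h in FW against 664 in An. merus, a pooled ratio of 295 with a 95% counting interval of 100.4 to 1432. AGAP003641 had 3 reads against 1256, a ratio of 557 with an interval of 190.2 to 2706. These intervals cover counting error only.

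AGAP003641 and AGAP006417 also varied within An. merus. AGAP006417 stood at 88.7, 44.4, 192 and 35.6 CPM in the 4 An. merus libraries at 66 h in FW, and AGAP003641 at 75.1, 34.2, 101 and 25.5 CPM. For both, libraries 1 and 3 were above libraries 2 and 4. AGAP007334 showed the contrary picture of a gene with little spread. It stood at 60.1, 58.8, 57.96 and 63.01 CPM in An. merus at 66 h in FW and at 0.472, 0.759, 0.901 and 1.10 CPM in An. coluzzii, and the lower of its FW ratios was 54.8. AGAP008561 likewise held within 41.9 to 47.7 CPM (18 h) and 29.2 to 31.9 CPM (66 h) in An. merus FW, against at most 1.81 CPM in An. coluzzii FW.

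AGAP002894, AGAP001067 and AGAP003905 completed the 10 genes highest by the lower of their FW ratios, together with AGAP002360, which is described with the SW results. AGAP002894 stood at 15.1, 14.3, 7.21 and 13.2 CPM in An. merus at 18 h in FW and at 15.2, 13.5, 12.6 and 14.8 CPM at 66 h, and An. coluzzii FW values reached 0.253 CPM at most. AGAP001067 and AGAP003905 were the low end of the group. Their An. merus FW values lay between 3.77 and 10.2 CPM for AGAP001067 and between 5.47 and 8.50 CPM for AGAP003905, while no An. coluzzii FW library exceeded 0.361 CPM for either gene. A pooled ratio of 129 for AGAP001067 at 18 h in FW rested on 3 An. coluzzii reads, with an interval of 43.7 to 630.

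AGAP005975 was the most abundant of the 53 in An. merus FW, at 688, 643, 635 and 686 CPM in An. merus at 18 h in FW and 4553, 2027, 7906 and 2082 CPM at 66 h. In An. coluzzii FW it stood at 35.96, 80.1, 229.8 and 233 CPM (18 h) and 848, 660.0, 1006 and 832 CPM (66 h). At 66 h An. merus libraries 1 and 3 were more than 2-fold above libraries 2 and 4, and at 18 h An. coluzzii libraries 1 and 2 were more than 2-fold below libraries 3 and 4. This gene alone made up 24.3% to 43.7% of the summed CPM of the 53 genes in the An. merus libraries at 66 h in FW. It did not meet the rule without An. coluzzii libraries 1 and 2 at 18 h.

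AGAP006208 was a low gene at 18 h and an abundant one at 66 h in both species. It stood at 18.3, 10.8, 6.18 and 15.3 CPM in An. merus at 18 h in FW and at 1771, 494, 2420.5 and 471 CPM at 66 h, against 0.884, 0.227, 1.44 and 0.672 CPM and 153, 38.7, 107 and 79.1 CPM in An. coluzzii. At 66 h libraries 1 and 3 of An. merus again lay well above libraries 2 and 4. AGAP013359 differed by close to the least allowed, with a lower FW ratio of 4.35, and did not meet the rule without An. coluzzii libraries 1 and 2 at 18 h. Its An. merus values were 513, 508, 513 and 558 CPM at 18 h in FW and its An. coluzzii values 67.6, 97.9, 132 and 183 CPM, with libraries 1 and 2 the lowest.

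AGAP006674, AGAP007252 and AGAP007744 completed the 6 genes with the highest An. merus FW levels, and in the first and the second the split among the An. coluzzii libraries was wide. AGAP006674 stood at 6.78, 10.2, 50.5 and 40.5 CPM in An. coluzzii at 18 h in FW and AGAP007252 at 10.8, 16.2, 96.1 and 72.1 CPM. The An. merus libraries stood at 256, 264, 259.9 and 141 CPM and 366, 344, 359 and 219 CPM for the same genes in the same order. The groups did not overlap, but An. coluzzii libraries 3 and 4 came nearer to An. merus than libraries 1 and 2. Without libraries 1 and 2 AGAP007252 did not meet the rule. AGAP007744 lay within 168 to 273 CPM at 18 h and 372 to 993 CPM at 66 h in An. merus FW, against 15.9 to 38.8 and 107 to 199 CPM in An. coluzzii.

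Membership was sharp for some genes and marginal for others. Just inside the 4-fold threshold lay AGAP009197 at 4.33, AGAP010973 at 4.10 and AGAP007053 at 4.09, all set by their ratio at 66 h. Just outside lay AGAP004724 at 3.98, AGAP004118 at 3.90 and AGAP008356 at 3.90. AGAP004724 reached 41.0 at 66 h and failed at 18 h, and AGAP008356 reached 47.5 at 18 h and failed at 66 h. Of the 7881 genes that met the level of 5 CPM, 104 passed the 4-fold threshold at 18 h alone and 17 at 66 h alone. Without An. coluzzii FW libraries 1 and 2 at 18 h the rule took 49 genes, of which 45 were among the 53. The 8 that dropped out were AGAP005690, AGAP005941, AGAP005975, AGAP006521, AGAP007053, AGAP007252, AGAP011683 and AGAP013359. For 20 genes the lowest An. merus FW library was at least 4 times the highest An. coluzzii FW library at both ages.

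In saltwater at 18 h, where no library had been used to choose the genes, 52 of the 53 were higher in An. merus and 0 were lower (limma on log2(CPM + 1), adjusted p below 0.05). Over all 10505 genes tested, 31.2% were called higher in An. merus and 29.1% lower. The median log2 fold change of the 53 was 2.48, against 0.03 over all genes. An. merus lay above An. coluzzii in all 4 libraries against all 4 for 49 of the 53, and for 25.9% of all genes. At an unadjusted p below 0.05 the count was also 52, all higher, and edgeR on recovered reads called 50 higher and 0 lower. The share of all genes higher by these other rules is not given, so their counts are not read further.

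In saltwater at 66 h 48 of the 53 genes were higher in An. merus and 0 were lower, against 32.1% of all genes higher and 35.2% lower. The median log2 fold change was 2.32, against -0.02 over all genes, and the libraries did not overlap for 49 genes, against 30.2% of all. At an unadjusted p below 0.05 the count was 49, all higher, and edgeR called 49 higher and 0 lower. No share of all genes is given for these counts either. The level and the 4-fold ratio that chose the genes in FW were also met by the SW means for 35 of the 53 at 18 h, against 1.49% of all genes, and for 37 at 66 h, against 1.95%. The 4-fold ratio alone was kept by 40 genes at 18 h, by 41 at 66 h and by 37 at both ages. The share of all genes is not given for the ratio alone, so these counts are not read further. Over both waters and ages, all 16 An. merus libraries lay above all 16 An. coluzzii libraries for 34 of the 53, against 1.93% of all genes, a count that includes the FW libraries that chose them.

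**Figure D2:**
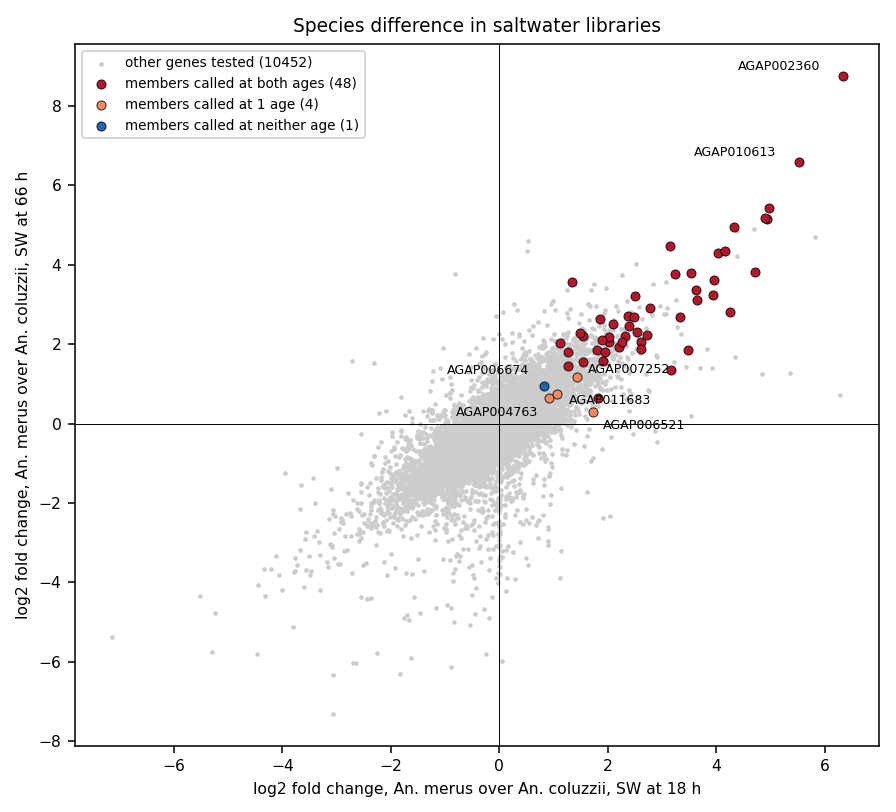
Species difference in SW at 18 h (horizontal axis) and 66 h (vertical axis), as log2 fold change of An. merus over An. coluzzii from limma on log2(CPM + 1). Grey points are the 10452 other genes tested, and coloured points are the 53 genes by whether they were called at both ages (48), 1 age (4) or neither (1). The 53 lie to the right of and above 0, from 0.82 and 0.31 for the lowest to 6.33 and 8.76 for AGAP002360.

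The 53 genes can be divided by their level in An. coluzzii FW, which took part in the choice and goes with a large ratio by construction, so the order of the ratios is no result. The 12 genes below 1 CPM in An. coluzzii FW had a median ratio of SW means of 46.4 at 18 h and 42.9 at 66 h, and all 12 were called at both ages. The 33 genes of middle level had medians of 8.49 and 7.69, with 33 called at 18 h and 31 at 66 h. The 8 genes at 10 CPM or more had medians of 3.68 and 3.09, with 7 called at 18 h and 5 at 66 h. These counts read against the same 31.2% and 32.1% of all genes. Ratios of genes at a few reads are imprecise, and the log2(CPM + 1) scale understates them.

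On the log2(CPM + 1) scale, AGAP002360 had the largest SW difference of the 53 at both ages. By the ratio of SW means at 18 h it was not the largest, at 112 against 245 for AGAP011416. In SW at 18 h AGAP002360 stood at 158, 243, 268 and 294 CPM in An. merus and 1.26, 3.67, 2.80 and 0.851 CPM in An. coluzzii. At 66 h it stood at 785, 776, 764 and 569 CPM and 0.557, 0.689, 0.764 and 0.608 CPM in the same order. The groups were separated by a wide gap, with log2 fold changes of 6.33 ± 0.29 (SE, limma adjusted p = 5.72e-16) at 18 h and 8.76 ± 0.29 (adjusted p = 2.5e-19) at 66 h. AGAP010613 followed on the same scale. At 66 h in SW it stood at 151, 169, 153 and 101 CPM in An. merus and 0, 0.438, 0.934 and 0.71 CPM in An. coluzzii. Its log2 fold changes were 5.51 ± 0.21 at 18 h and 6.59 ± 0.21 at 66 h (limma adjusted p = 7.05e-19 and 9.23e-21).

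The genes that did not pass in SW were a small set with different patterns. AGAP006674 was the single gene not called at 18 h. It stood at 69.3, 72.8, 62.2 and 77.4 CPM in An. merus and 80.5, 63.2, 43.5 and 10.4 CPM in An. coluzzii in SW, and the groups overlapped (log2 fold change 0.82 ± 0.50, limma adjusted p = 0.165). At 66 h it stood at 131, 261, 222 and 234 and 103, 104, 134 and 85.3 CPM, again with overlap (0.96 ± 0.50, limma adjusted p = 0.0953). At 66 h it was not called in 15 of 17 alternatives. In FW at 66 h the same gene had been at 604 to 966 CPM in An. merus, so its SW level in that species was lower there.

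AGAP006521 was not called at 66 h, where it stood at 14.99, 11.1, 10.2 and 8.90 CPM in An. merus and 8.91, 8.83, 8.49 and 8.92 CPM in An. coluzzii in SW. Its values were 43.05, 22.9, 62.9 and 22.9 CPM in An. merus at 66 h in FW, and the SW groups touched at their ends (log2 fold change 0.31 ± 0.23, limma adjusted p = 0.242). Scaling all libraries to one sum turned the value to -0.10, and the gene was not called in 16 of 17 alternatives. AGAP004763, a gene of a few CPM, stood at 2.04, 2.98, 1.44 and 3.27 CPM in An. merus and 0.186, 1.32, 2.21 and 1.42 CPM in An. coluzzii at 66 h in SW, with overlap (0.64 ± 0.29, limma adjusted p = 0.0546). This gene was not called in 13 of 16 alternatives.

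AGAP007252 and AGAP011683 were not called at 66 h although their SW libraries did not overlap. AGAP007252 stood at 155, 248, 206 and 185 CPM in An. merus and 94.3, 79.5, 102 and 71.4 CPM in An. coluzzii (1.18 ± 0.58, limma adjusted p = 0.0747). AGAP011683 stood at 99.2, 116, 106 and 117 CPM and 75.7, 50.7, 85.4 and 54.9 CPM (0.74 ± 0.44, limma adjusted p = 0.14). Both passed when the 8 libraries compared were fitted by themselves, so that the spread of other groups did not enter, with adjusted p-values of 1.99e-05 and 0.000929. Over all their alternatives the adjusted p ran up to 0.269 and 0.565, with no call in 14 and 16 of 17. At 18 h in SW, AGAP011683 was called with a log2 fold change of 1.07 ± 0.44 (limma adjusted p = 0.0389), but its An. coluzzii libraries stood at 56.4, 66.2, 25.6 and 7.02 CPM and it lost the call in 9 of 17 alternatives, among them those without An. coluzzii SW library 3 or 4 or An. merus SW library 1, 2 or 4. Without An. coluzzii SW library 4 its log2 fold change was 0.43. AGAP012532 was called at 66 h in SW at values near 1 CPM in An. merus, 1.75, 0.662, 1.44 and 1.09 CPM, against 0.742, 0.376, 0.0849 and 0.507 CPM in An. coluzzii, with overlap (0.64 ± 0.23, limma adjusted p = 0.0134). The 2 libraries without which it lost the call were An. coluzzii SW 3, at 0.52, and An. merus SW 1, at 0.54, and scaling all libraries to one sum gave 0.41.

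**Figure D3:**
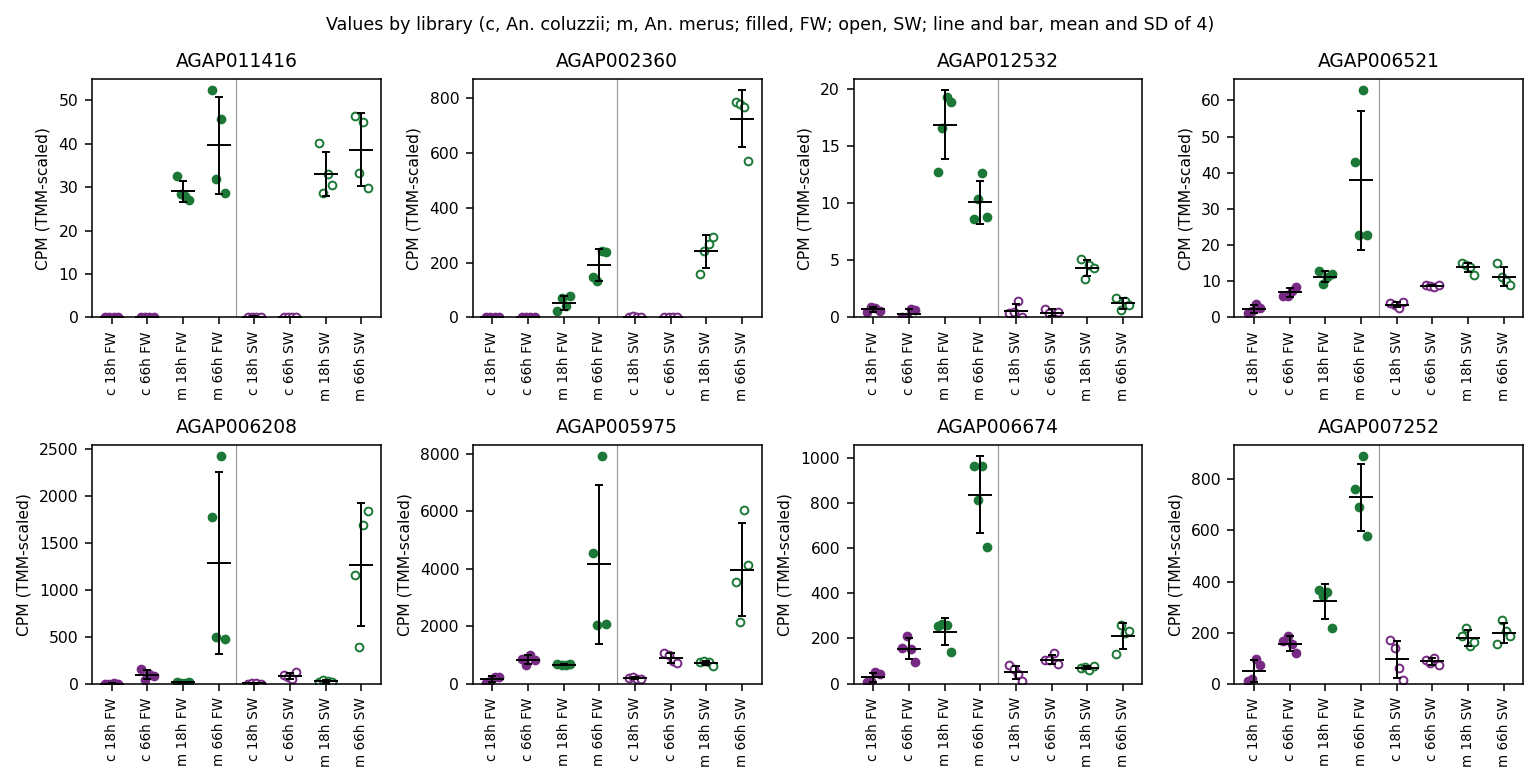
CPM by library for 8 of the 53 genes, on a linear axis of its own for each gene. Points are libraries (c, An. coluzzii; m, An. merus; filled, FW; open, SW), and the line and bar give the mean and SD of 4 libraries. AGAP011416 and AGAP002360 are near 0 in every An. coluzzii group, and AGAP006208 and AGAP005975 are high at 66 h with a wide spread. At 66 h AGAP012532, AGAP006521, AGAP006674 and AGAP007252 come closer to An. coluzzii in SW than in FW. The FW gap chose the genes, so a smaller gap in SW is favoured by the choice.

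Within saltwater, many of the 53 genes were higher at 66 h than at 18 h, in both species. In An. merus 24 were called higher at 66 h, against 29.2% of all genes, and 3 lower, against 33.1%. In An. coluzzii 21 were called higher, against 29.9% of all genes, and 3 lower, against 27.2%. Calls in the same direction in both species were made for 16 genes higher, against 20.2% of all, and for 1 gene lower, against 21.2%. Neither species was called for 20 genes, a count for which the share of all genes is not given. The median log2 fold change of the 53 was 0.49 in An. merus and 0.40 in An. coluzzii, against -0.05 and 0.01 over all genes. Scaling all libraries to one sum moved the medians over all genes to -0.51 and -0.37. The split of calls then became 10 higher and 9 lower in An. merus (52.6% higher, from 88.9%), and the share higher in An. coluzzii became 73.9%, from 87.5%. Directions with age therefore depend on how the libraries are scaled.

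AGAP006208 had the largest increase with age in both species. In An. merus SW it stood at 16.4, 40.2, 22.6 and 12.2 CPM (18 h) and 1156, 385, 1686 and 1839 CPM (66 h), and in An. coluzzii SW at 0.945, 1.66, 2.35 and 0.638 and 88.7, 66.1, 51.3 and 124 CPM. The ages did not overlap in either species, with log2 fold changes of 5.64 ± 0.54 and 5.10 ± 0.54 (limma adjusted p = 2.29e-09 and 1.27e-08). AGAP006425 was second in An. merus, at 7.95, 5.13, 6.64 and 4.93 CPM (18 h) and 234, 222, 173 and 267 CPM (66 h) in SW (4.98 ± 0.22, limma adjusted p = 5.5e-17). AGAP007193 was second in An. coluzzii, at 0.945, 0.355, 0.783 and 0.638 and 10.95, 8.77, 14.4 and 14.4 CPM (2.95 ± 0.35, limma adjusted p = 4.58e-08).

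Of the genes that fell with age in SW, AGAP008561 did so in both species. It stood at 35.1, 27.2, 52.6 and 21.6 CPM (18 h) and 14.5, 11.9, 17.7 and 11.8 CPM (66 h) in An. merus, without overlap (-1.17 ± 0.20, limma adjusted p = 1.06e-05). In An. coluzzii it was near 1 CPM (-0.47 ± 0.20, limma adjusted p = 0.0439), a call lost in 7 of its 17 alternatives, among them those without An. coluzzii SW library 1 or 4 at 18 h or 1, 2 or 3 at 66 h. AGAP012532 fell in An. merus from 5.09, 3.37, 4.62 and 4.28 to 1.75, 0.662, 1.44 and 1.09 CPM (-1.27 ± 0.23, limma adjusted p = 1.83e-05). AGAP002360 moved in opposite directions. It rose in An. merus, at the SW values given above (1.61 ± 0.29, limma adjusted p = 3.35e-05), and was called lower in An. coluzzii, where its values were between 0.557 and 3.67 CPM (-0.83 ± 0.29, limma adjusted p = 0.0179), a call lost in 3 of 17 alternatives, those with a pseudocount of 4 and without An. coluzzii SW library 2 or 3 at 18 h.

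The species difference in SW itself changed with age for 8 of the 53 genes. It was larger at 66 h for 4, against 8.27% of all genes, and smaller for 4, against 10.4%. The largest were AGAP002360, with an interaction of 2.44 ± 0.42 on the log2 scale (limma adjusted p = 0.000163), and AGAP006425, with 2.25 ± 0.31 (adjusted p = 1.03e-05). For AGAP006425 the SW values in An. coluzzii were 2.10, 1.89, 1.79 and 1.49 CPM (18 h) and 16.3, 14.03, 16.1 and 25.9 CPM (66 h), so that both species rose and An. merus rose more. On the other side, AGAP007744 stood at 188, 194, 195 and 247 CPM (18 h) and 384, 389, 344 and 464 CPM (66 h) in An. merus SW, and at 30.4, 25.4, 19.8 and 14.9 and 134, 122, 198 and 168 CPM in An. coluzzii SW. Here An. coluzzii rose by the larger factor, and the interaction was -1.81 ± 0.39 (limma adjusted p = 0.00188). AGAP005664 had an interaction of -1.44 ± 0.37 (limma adjusted p = 0.00721), and with a pseudocount of 4 it was -0.53 and not called.

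Saltwater against freshwater within An. merus uses the FW libraries that chose the genes for being high there, so lower values in SW are favoured by the choice. The counts are given beside the background, and the genes named by their values and fold changes without a test. At 18 h, 4 of the 53 were called higher in SW, against 25.2% of all genes, and 17 lower, against 26.5%. At 66 h, 11 were called higher, against 25.8%, and 20 lower, against 31.4%. At both ages 4 genes were higher (17.9% of all genes) and 11 lower (19.7%). A further 2 were lower at 18 h and higher at 66 h, and 18 were called at neither age. For these further counts the share of all genes is not given, and they are not read further. Scaling all libraries to one sum shifted the all-gene median from -0.02 to -0.21 at 18 h and from -0.06 to -0.26 at 66 h.

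AGAP002360 had the highest log2 fold change of these at both ages. It stood at 23.5, 70.7, 40.6 and 77.6 CPM in FW and 158, 243, 268 and 294 CPM in SW at 18 h, and at 146, 134, 242 and 239 and 785, 776, 764 and 569 CPM at 66 h, without overlap at either age. The log2 fold changes, with SE, were 2.27 ± 0.29 and 1.96 ± 0.29. AGAP007251 followed at 18 h, at 10.6, 5.66, 7.21 and 7.24 CPM in FW and 44.7, 29.3, 37.7 and 30.9 CPM in SW (2.09 ± 0.30). AGAP001684 was second at 66 h, at 47.97, 30.3, 44.6 and 49.96 CPM in FW and 169, 133, 119.8 and 133 CPM in SW (1.68 ± 0.52). AGAP002894 and AGAP005941 were the others called higher at both ages.

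AGAP012532 was among the genes with the lowest fold changes at both ages. It stood at 12.7, 16.6, 19.3 and 18.9 CPM in FW and 5.09, 3.37, 4.62 and 4.28 CPM in SW at 18 h, and at 8.57, 10.3, 12.6 and 8.79 and 1.75, 0.662, 1.44 and 1.09 CPM at 66 h, and the waters did not overlap. Its log2 fold changes were -1.74 ± 0.23 and -2.32 ± 0.23. AGAP006674 was the other lowest at 66 h, at -1.997 ± 0.50, with its values given above. AGAP006425 and AGAP008537 were called in opposite directions at the 2 ages. For AGAP008537 the waters overlapped at 66 h, where SW library 4 was highest at 57.01 CPM and FW library 4 lowest at 3.77 CPM. That gene was not in the outlier screen or among the named genes followed under the alternatives. AGAP006425 stood at 27.3, 27.04, 31.6 and 14.02 CPM in FW and 7.95, 5.13, 6.64 and 4.93 CPM in SW at 18 h, but at 152, 115, 152 and 119 and 234, 222, 173 and 267 CPM at 66 h (-1.82 ± 0.22 and 0.73 ± 0.22). AGAP008537 stood at 52.8, 50.98, 55.6 and 50.001 CPM in FW and 16.7, 21.95, 19.2 and 24.002 CPM in SW at 18 h without overlap, and at 25.4, 13.7, 14.8 and 3.77 and 20.8, 22.004, 16.1 and 57.01 CPM at 66 h with overlap (-1.33 ± 0.37 and 1.02 ± 0.37).

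**Figure D4:**
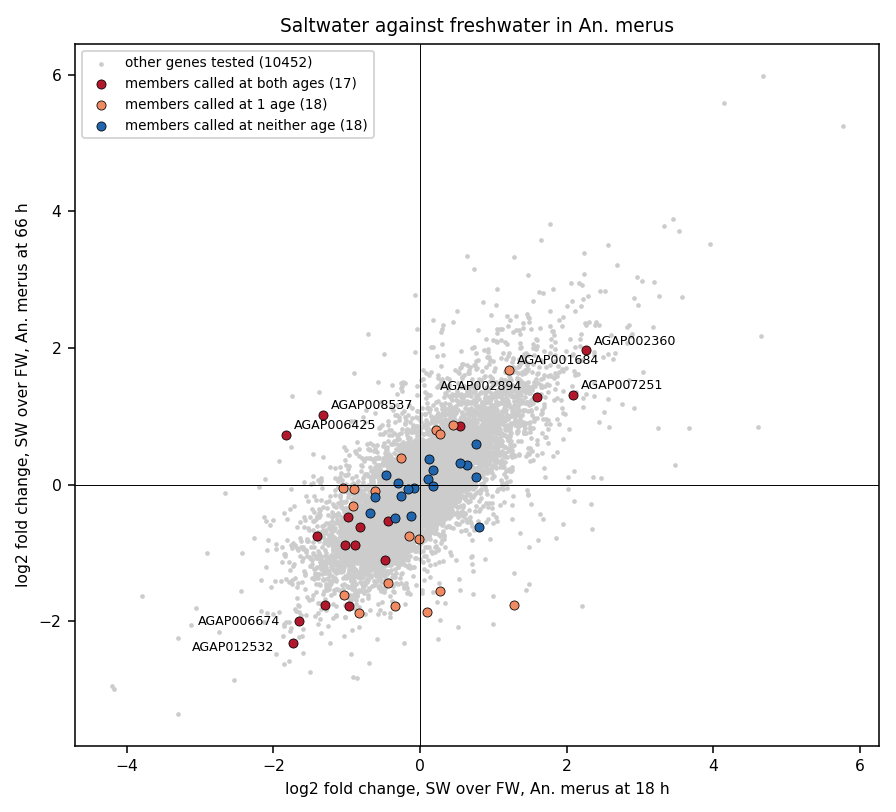
SW against FW in An. merus at 18 h (horizontal axis) and 66 h (vertical axis), as log2 fold change from limma on log2(CPM + 1). Grey points are the 10452 other genes tested, and coloured points are the 53 genes by whether they were called at both ages (17), 1 age (18) or neither (18). The 53 spread from -1.82 to 2.27 at 18 h and from -2.32 to 1.96 at 66 h, with AGAP002360 at the upper right and AGAP012532 and AGAP006674 at the lower left.

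SW against FW in An. coluzzii also uses FW libraries that chose the genes, here for being low, so higher values in SW are favoured by the choice. The counts and p-values are therefore descriptive, and few genes of any kind were called. At 18 h, 1 gene was called higher, against 4.7% of all genes, and 0 lower, against 3.55%, and 9 of the 53 had an unadjusted p below 0.05. At 66 h, 0 were called in either direction, against 1.35% higher and 0.885% lower of all genes, with 5 at an unadjusted p below 0.05. In edgeR 2 were called higher at 18 h and 0 at 66 h. For unadjusted p-values and edgeR the share of all genes is not given, so those counts are not read further. The called gene, AGAP003343, stood at 20.6, 30.4, 34.7 and 25.6 CPM in FW and 72.4, 55.3, 39.4 and 27.9 CPM in SW at 18 h, with overlap. Its log2 fold change was 0.73 ± 0.20 (limma adjusted p = 0.0277), and over 17 alternatives the adjusted p ran from 0.00362 to 0.439, with no call in 6. Those 6 were the fit over its own libraries, those without An. coluzzii FW library 1 or 2 or both, and those without SW library 1 or 2.

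The interaction of species and water compares SW against FW in An. merus with the same in An. coluzzii. The FW libraries that chose the genes enter it for both species, so negative values are favoured by the choice. Its counts, values and p-values are therefore described and not read further. At 18 h it was called positive for 4 of the 53, against 11% of all genes, and negative for 14, against 10%. Without An. coluzzii FW libraries 1 and 2 the negative count was 8. At 66 h it was positive for 5, against 14.5%, and negative for 8, against 17.5%. The 18 h leaders were AGAP002360 at 1.97 ± 0.42 (limma adjusted p = 0.00122) and AGAP007251 at 1.53 ± 0.43 (adjusted p = 0.011) on the positive side. In edgeR on recovered reads, 1 gene was called positive at 18 h, and AGAP002360 (1.48, adjusted p = 0.0523) and AGAP007251 (1.07, adjusted p = 0.215) were not, each with the highest p over its alternatives. Their lowest were 0.000108 and 0.00104. On the negative side, AGAP006674 at -2.61 ± 0.71 (limma adjusted p = 0.01) and AGAP006731 at -2.12 ± 0.76 (adjusted p = 0.0475) lost their call without the An. coluzzii libraries that stand apart. Without FW libraries 1 and 2 they moved to -1.46 and -0.99, with adjusted p of 0.103 and 0.342, the highest over all their alternatives. The lowest adjusted p over those alternatives was 0.000521 for AGAP006674 and 0.0128 for AGAP006731, which was not called in 13 of 25.

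AGAP006731 had both splits among the An. coluzzii libraries. In An. coluzzii at 18 h it stood at 0.442, 1.25, 8.64 and 6.72 CPM in FW and 11.1, 18.7, 4.03 and 2.98 CPM in SW, so libraries 1 and 2 were lowest in FW and highest in SW. In An. merus it stood at 112, 66.4, 99.7 and 23.2 CPM in FW and 36.6, 34.2, 26.5 and 27.9 CPM in SW at that age. At 66 h the leading interactions were positive for AGAP002360, at 1.46 ± 0.42 (limma adjusted p = 0.00813), and AGAP006425, at 1.42 ± 0.31 (adjusted p = 0.000843). They were negative for AGAP012532, at -2.44 ± 0.32 (limma adjusted p = 1.32e-06), and AGAP006521, at -1.87 ± 0.32 (adjusted p = 6.25e-05). AGAP002360 at 66 h depended on the scale. It stood at 0.354, 0.253, 0 and 0.0915 CPM in FW and 0.557, 0.689, 0.764 and 0.608 CPM in SW in An. coluzzii, and edgeR on recovered reads, which compares ratios without a pseudocount of 1, gave an interaction of 0.05 (adjusted p = 0.989, with a lowest value of 0.00025 over the alternatives).

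Some of the 53 genes carry consecutive identifiers. There were 3 such pairs with 6 genes, AGAP005664 with AGAP005665, AGAP006207 with AGAP006208, and AGAP007251 with AGAP007252, and no longer run. The members of a pair did not share a level or a pattern in every case. AGAP005664 and AGAP005665 stood at 19.5 to 36.7 and 31.95 to 111 CPM in An. merus at 18 h in FW, against at most 0.648 and 1.15 CPM in An. coluzzii. AGAP006207 stood at 189.5, 151, 143 and 93.4 CPM in An. merus at 18 h in FW, where AGAP006208 stood at 6.18 to 18.3 CPM. AGAP007251 was higher in SW in An. merus at both ages, whereas AGAP007252 at 66 h stood at 761.7, 690.4, 891 and 578 CPM in FW and 155, 248, 206 and 185 CPM in SW. Coordinates were not used here, and reads that such neighbours may share could not be examined.

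Summed over the 53 genes, An. merus libraries held 3152 to 4057 CPM at 18 h in FW and 7500.0 to 18104 CPM at 66 h in FW, and 3588 to 3884 and 8102 to 13149 CPM in SW. An. coluzzii libraries held 243 to 742 CPM at 18 h in FW and 1748 to 2150.1 CPM at 66 h in FW, and 425 to 929 and 1717 to 2064 CPM in SW. The species did not overlap in any of the 4 comparisons, which in FW follows from how the genes were chosen. AGAP005975 alone held 26.6% to 45.9% of the sum in An. merus at 66 h in SW and 41.7% to 52.1% in An. coluzzii. Without that gene these sums were 5946 to 7110 and 937 to 1083 CPM. For scale, the mirror rule, with An. coluzzii FW means at least 5 CPM and 4 times those of An. merus, took 127 genes. Of these, 125 and 121 were called lower in An. merus in SW at 18 h and 66 h, against 29.1% and 35.2% of all genes.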

How the data were processed

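The authors deposited 1 table for 32 libraries, holding a signal per gene: CPM after TMM scaling (trimmed mean of M values), whose columns sum to 737787 to 1481287. The tools were edgeR, HTSeq, TopHat2, Bowtie2 and Trimmomatic per the submitters' processing notes, which give neither roles nor versions. Per the labels' protocols, libraries were made with a polyA-selecting TruSeq RNA v2 kit, which does not mark strand, so reads of overlapping genes cannot be told apart. The genome build, the annotation and the rule by which the table was filtered are not given in the sources used here. Both species carry 1 set of identifiers, and how well the reads of each align to it was not tested.

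Dividing the deposited values by that of 1 read gave whole reads in 100% of cases within 0.01 reads, and TMM factors recomputed from the reads with edgeR 4.0.16 matched within 4.09e-15 in relative terms. Tests were planned on CPM and run on this signal, as log2(CPM + 1), with limma 3.58.1 (trend, robust; R 4.3.3). One model of 8 group means covered the 32 libraries, leaving 24 residual degrees of freedom. A mean of 1 CPM or more was required, which kept 10505 genes, all 53 members among them, and left out 520. The 11 comparisons were tested two-sided, each with Benjamini-Hochberg adjustment over all genes and a threshold of 0.05. Fold changes, with standard errors, are log2 differences of CPM + 1, a scale that understates changes of low genes. For the species difference in SW, edgeR's quasi-likelihood test on the recovered reads called 6361 genes at 18 h and 7064 at 66 h, where limma called 6332 and 7067.

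Members, lists and tests were chosen with earlier results of these data known. The names given are the members with the 10 highest FW ratios and 6 highest An. merus FW levels, those nearest the threshold, those lowest or not called in SW, consecutive identifiers, and the first 2 called each way per comparison. AGAP008537, AGAP005941, AGAP005690 and the genes lost without An. coluzzii libraries 1 and 2 were named after their values were seen. The rule allowed 3 each way, and 2 are given because the identifiers have no names. No identifier (0 of 11025) was found in the gene name table, so 18 planned gene lists matched no gene, and no sequences are shown. Chi-square per degree of freedom between replicates was 5.36 to 50.3 over 48 pairs, where sampling noise alone gives about 1, and none was taken as 1 library read again. Counting intervals and floors cover counting error only. Alternatives were pseudocounts of 0.5 and 4, other filters and scalings, edgeR on the recovered reads, fits over a comparison's own libraries, each library left out and, chosen after seeing the data, An. coluzzii 18 h FW libraries 1 and 2 left out. Figures were drawn with matplotlib 3.10.9.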

Additional observations from a re-analysis of the deposited data

Results flagged for a closer look

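In 10 of 175 groups of 4 libraries examined for the 32 named genes (5.71%), 1 library lay further from the other 3 than Dixon's 95% critical value allows, where chance gives about 1 in 20. AGAP001684 stood at 27.5 CPM in An. merus 18 h FW library 3, with the nearest other at 101 CPM. AGAP002360 stood at 569 CPM in An. merus 66 h SW library 4 (nearest 764), and AGAP005664 at 31 CPM in An. merus 66 h SW library 1 (nearest 36.5). AGAP006425 stood at 41.8 CPM in An. coluzzii 66 h FW library 2 (nearest 26.8), and AGAP009197 at 27.8 CPM in An. coluzzii 18 h SW library 1 (nearest 19.1). An. merus 18 h FW library 4 was the distant library for AGAP006674 at 141 CPM (nearest 256), AGAP007252 at 219 CPM (nearest 344) and AGAP013359 at 558 CPM (nearest 513). AGAP007053 stood at 13.5 CPM in An. merus 66 h SW library 3 (nearest 9.99), and AGAP007744 at 247 CPM in An. merus 18 h SW library 4 (nearest 195).

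The species difference in SW differed between the ages, by the limma interaction, for AGAP002360 at 2.44 (adjusted p = 0.000163), AGAP006425 at 2.25 (1.03e-05), AGAP007744 at -1.81 (0.00188) and AGAP005664 at -1.44 (0.00721), among the named genes. The interaction of species and water, which the FW libraries that chose the genes enter, was called at 18 h for AGAP002360 at 1.97 (limma adjusted p = 0.00122), AGAP007251 at 1.53 (0.011), AGAP006674 at -2.61 (0.01) and AGAP006731 at -2.12 (0.0475). None of these 4 calls held in every alternative. Negative values of this interaction are favoured by the choice at both ages, so its p-values are descriptive. In edgeR the adjusted p was 0.0523 for AGAP002360 and 0.215 for AGAP007251. Without An. coluzzii FW libraries 1 and 2, AGAP006674 moved to -1.46 (limma adjusted p = 0.103) and AGAP006731 to -0.99 (0.342). At 66 h the interaction was called for AGAP002360 at 1.46 (limma adjusted p = 0.00813), AGAP006425 at 1.42 (0.000843), AGAP012532 at -2.44 (1.32e-06) and AGAP006521 at -1.87 (6.25e-05). For AGAP002360 it was 0.05 in edgeR (adjusted p = 0.989), so on the ratio scale no difference between the species was called. The adjusted p-values of these genes over their alternatives ran from 0.000108 to 0.0523 for AGAP002360, 0.00104 to 0.215 for AGAP007251, 0.000521 to 0.103 for AGAP006674 and 0.0128 to 0.342 for AGAP006731 at 18 h, and from 0.00025 to 0.989 for AGAP002360 at 66 h.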

How the results depend on the processing

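The SW species difference held under the alternatives run: 42 to 52 of the genes were called higher at 18 h, 39 to 51 at 66 h, and 0 lower. The lowest counts came where a mean of 5 CPM was required for testing, which left some of the genes untested. Of 803 values of named genes under alternatives 744 kept their direction and side of the threshold, 48 lost a call, 10 gained one and 1 changed sign, which was AGAP006521 in SW at 66 h, at -0.10 after scaling all libraries to one sum. Of 444 counts, 399 stayed within 1.5 times their main value.

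The exceptions are given here by setting, and their cause was not tested. With a pseudocount of 0.5, the count called lower with age in SW in An. coluzzii was 5 and the negative species by water interaction at 66 h 4. With a pseudocount of 4, these were 0 and 13, the positive species by age interaction in SW was 9, and 7 were higher in SW in An. merus at 18 h. With a mean of at least 5 CPM, which tests fewer of the genes, 1 was lower with age in An. merus, 9 and 13 were lower in SW in An. merus at 18 h and 66 h, and 8 and 5 had a negative species by water interaction. With all libraries scaled to one sum, 10 were higher and 9 lower with age in An. merus, 6 were lower with age in An. coluzzii, 2 and 8 had a positive and a negative species by age interaction, 7 were higher in SW in An. merus at 66 h, and 14 had a negative species by water interaction at 66 h. With quantile normalisation the counts were 6 lower with age in An. coluzzii, 7 with a positive species by age interaction and 5 with a negative species by water interaction at 66 h.

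With edgeR on recovered reads, 5 were lower with age in An. coluzzii, 2 higher in SW in An. coluzzii at 18 h, and 1 and 3 had a positive species by water interaction at 18 h and 66 h. In fits over a comparison's own libraries, 7 were higher in SW in An. merus at 18 h, and in An. coluzzii 0 were higher at 18 h and 1 lower at 66 h. Without An. coluzzii 18 h FW libraries 1 and 2, 0 were higher in SW in An. coluzzii at 18 h and 8 had a negative species by water interaction. The rule took 80 genes at 3-fold, 29 at 6-fold, and 20 when the lowest An. merus library had to be 4 times the highest An. coluzzii library. Leaving out 1 library at a time gave 48 to 57 members, with 45 in every case, and 48 was reached without An. merus 66 h FW library 3. It gave 1 to 3 lower with age in An. coluzzii, 3 to 7 with a positive species by age interaction, and in An. coluzzii SW against FW 0 to 5 higher at 18 h and 0 to 1 lower at 66 h.

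No paired analysis was possible because the labels number the libraries from 1 to 32 and the groups share no replicate number. Genes with a few reads per An. coluzzii group limit the precision of the largest ratios.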
